A study of Canis lupus familiaris with 4 samples.

Results

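The BCL2 family sets whether a cell commits to apoptosis through its mitochondria. Its 10 members described here were BCL2, BCL2L1, MCL1, BAX, BAK1, BID, BAD, BCL2L11, BBC3 and PMAIP1. They were taken by gene symbol: every probe set (a group of oligonucleotide probes read together as 1 value) whose platform annotation gives a member as its only gene. This rule found 13 probe sets for 8 members, of 42860 probe sets and 15115 named genes in all. BBC3 and PMAIP1, known as PUMA and NOXA, had no probe set under these symbols and are not analysed here.

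Expression was measured in MDCKII cells, an epithelial line from dog kidney that forms polarized sheets in culture, on 4 Affymetrix arrays. The groups were HIF1A KD cells in hypoxia, HIF1A WT cells in hypoxia, HIF1A KD cells in normoxia and HIF1A WT cells in normoxia, where KD stands for knockdown, with 1 array each. All cells were first kept in normoxia for 24 h and then for a further 24 h in the labelled condition, and 100 ng of total RNA was labelled by the 3' IVT Express method. Nothing in the labels states the knockdown method, the number of clones or the oxygen level.

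The family works as 3 groups of proteins. BCL2, BCL2L1 (BCL-XL) and MCL1 keep cells alive by holding the pro-apoptotic proteins in check. BAX and BAK1 are the effectors that open the outer mitochondrial membrane and let cytochrome c out. The BH3-only proteins BID, BAD, BCL2L11 (BIM), BBC3 and PMAIP1 sense stress and either bind the survival proteins or activate the effectors. Hypoxia is linked to this network through BH3-like proteins of the BNIP3 family, which are HIF targets, and MCL1 is a short-lived protein whose level depends on continued synthesis.

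HIF1A, the oxygen-regulated subunit of hypoxia-inducible factor 1, was checked first. Its intensity was 625 on the array labelled KD hypoxia and 675 on that labelled WT hypoxia, against 3435 on that labelled KD normoxia and 3651 on that labelled WT normoxia. HIF1A intensity followed the oxygen label (it fell by 2.42 on the log2 scale, adjusted p = 1.51e-10 by limma) and not the knockdown label (a genotype term of -0.10, adjusted p = 0.527). ADM, a secreted peptide gene induced by HIF, read 2017, 941, 4486 and 563 in the same order, highest on the array labelled KD normoxia. Over HIF1A and 7 HIF target genes 14 probe sets were tested. Of these, 12 were at least 1.5-fold higher in KD normoxia than in WT normoxia, against 3.85% of all tested probe sets. The rest were those of HIF1A (0.18 and -0.09 on the log2 scale). In KD hypoxia 11 of 14 were at least 1.5-fold lower than in KD normoxia, against 4.2% of all tested probe sets. These directions go against the labels. Every direction given here is that of the labels only, and the arrays are named by their labels throughout.

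The arrays were alike in scale. Median intensities lay between 45.7 and 47.2, and pairs of arrays correlated with Pearson's r from 0.982 to 0.987 over probe sets on the log2 scale, across probe sets that are not independent replicates. Of 11 epithelial and kidney tubule markers 9 were at or above the floor on all 4 arrays, and their summed intensity lay between 53872 and 60233. PAX8 was below the floor on every array (4.54 to 9.43), as was 1 probe set of CDH1 (17.8 to 41.2), its only one. Of the leukocyte markers 0 of 4, of the endothelial markers 2 of 4 (CDH5 and KDR) and of the fibroblast and muscle markers 1 of 6 (PDGFRA) reached the floor on all 4 arrays, with summed intensities of 184 to 228, 249 to 330 and 160 to 221.

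Values are the deposited linear intensities. Differences are of log2(intensity + 16), which understates the change of dim probe sets, and the number of arrays limits their precision. The floor was set at an intensity of 46.5, the median over all values on the log2 scale, and a probe set was tested if any of its 4 values reached it. Of the 13 member probe sets 11 reached it, from 7 genes, and 10 lay above it on all 4 arrays. The lone BCL2L11 probe set (14.8 on the array labelled KD hypoxia, 19.8 on WT hypoxia, 6.12 on KD normoxia and 13.7 on WT normoxia) lay below it on every array, so no difference is given for this gene. The same held for 1 of the 2 BAK1 probe sets (30.3, 26.6, 10.9 and 12.0 in that order).

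**Figure D1:**
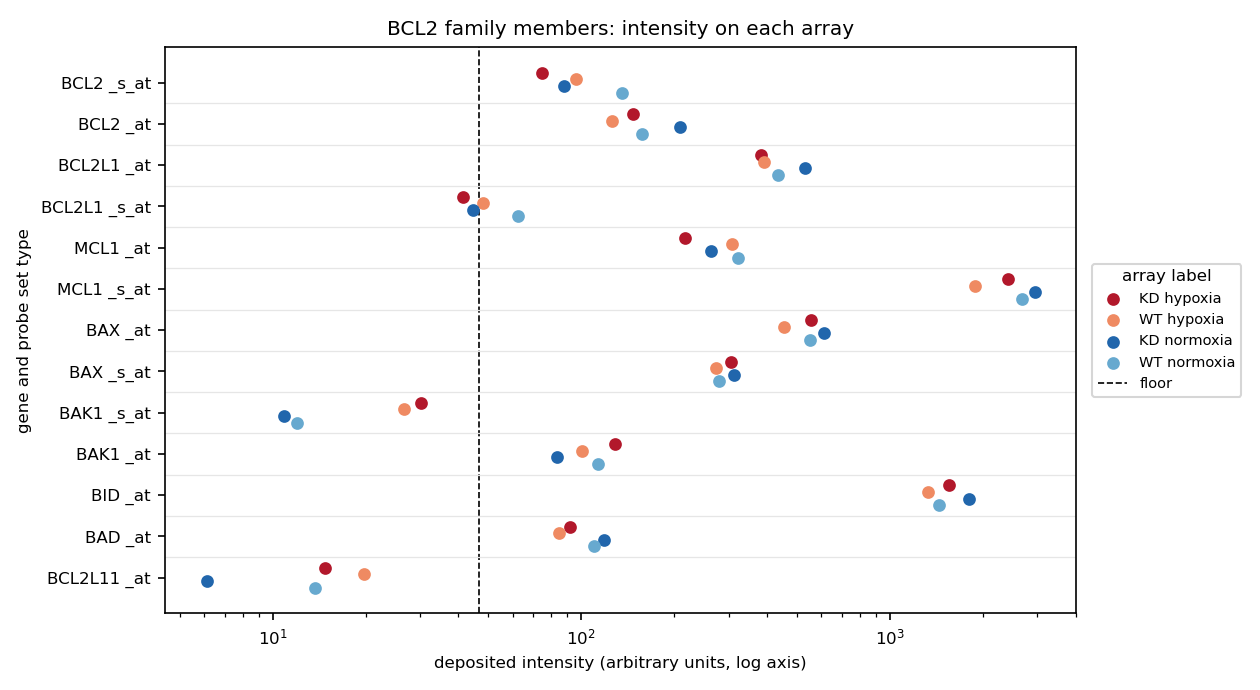
Deposited intensity (arbitrary units, log axis) of the 13 probe sets of 8 BCL2 family members, 1 point per array in the colour of its label, with the floor of 46.5 as a dashed line. The BCL2L11 probe set and the _s_at probe set of BAK1 lie left of the floor on all 4 arrays, and the _s_at probe set of BCL2L1 lies across it.

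In each of the 4 comparisons of a pair of arrays, 0 of 11 tested member probe sets differed at least 1.5-fold. Among all 23612 tested probe sets, 8.07% did so for KD hypoxia minus KD normoxia, 6.4% for WT hypoxia minus WT normoxia, 6.56% for KD hypoxia minus WT hypoxia and 8.02% for KD normoxia minus WT normoxia. With shares of this size, a count of 0 among 11 is near the background and is no result about the members. With 1 array per group these differences have no replicate check.

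The 1 test that 4 arrays allow is an additive model of oxygen and genotype, fitted with limma over all tested probe sets. It has 1 residual degree of freedom and draws most of its variance from other probe sets, so its p-values do not measure the spread between cultures. For oxygen, 1 of 11 member probe sets passed an adjusted p of 0.05 (MCL1, lower), where 10.2% of all tested probe sets passed and 4.89% passed as lower. For genotype, 0 of 11 passed, where 9.01% of all did. Counts of 1 and 0 among 11 are near these shares and are no result about the members. At an unadjusted p under 0.05 there were 4 of 11 for oxygen and 5 of 11 for genotype, against 23.3% and 23.4% of all tested probe sets.

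The hypoxia minus normoxia differences of the members ran one way. For KD hypoxia minus KD normoxia, 10 of 11 member probe sets were lower and 1 higher, with a median of -0.21, where 48% of all tested probe sets were lower and the median was 0.01. For WT hypoxia minus WT normoxia, 11 of 11 were lower, with a median of -0.27, where 47.1% of all were lower and the median was 0.02. These pairs share no array. In both pairs 10 of 11 were lower, against 30.4% of all tested probe sets. Of the 7 tested genes 6 had every tested probe set lower in both, a count with no share over all genes beside it. These counts hold the BCL2L1 _s_at probe set, whose KD values were both below the floor. Over probe sets at or above the floor on all 4 arrays, 9 of 10 member probe sets were lower in both pairs, against 30.8% of all such probe sets. The member probe sets come in pairs from 4 of the genes, so they are not 11 separate readings, and the directions are a description with no test.

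The KD minus WT differences of the members did not run one way. In hypoxia 7 of 11 member probe sets were higher in KD, with a median of 0.15, where 46.1% of all tested probe sets were higher and the median was -0.02. In normoxia 7 of 11 were higher in KD, with a median of 0.14, where 47.3% of all were higher and the median was -0.02.

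MCL1, the short-lived survival protein gene, held the 1 of 11 member probe sets that passed for oxygen, where 10.2% of all tested probe sets passed. Its _s_at probe set read 2422 on the array labelled KD hypoxia and 1894 on WT hypoxia, against 2945 on KD normoxia and 2672 on WT normoxia. Both hypoxia values lay below both normoxia values. In the oxygen term it fell by 0.39 on the log2 scale (SE 0.08, adjusted p = 0.00526 by limma, Benjamini-Hochberg over all tested probe sets). The call ended when limma was run without its intensity trend (adjusted p = 0.223) or without the floor (adjusted p = 0.161), and over all 8 alternatives the adjusted p lay between 0.000275 and 0.223.

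The other MCL1 probe set, of type _at, read 216 on the array labelled KD hypoxia and 307 on WT hypoxia, against 264 on KD normoxia and 322 on WT normoxia. Here the oxygen groups overlap, and the genotype groups do not: both KD values lay below both WT values. Its oxygen term was -0.17 (adjusted p = 0.44) and its genotype term -0.38 (adjusted p = 0.0596). The genotype term of the _s_at probe set had the opposite sign, 0.25 (adjusted p = 0.0675), with KD above WT at each oxygen level.

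BCL2, the founding survival gene, showed the same split between its probe sets. The _at probe set read 147 on the array labelled KD hypoxia and 126 on WT hypoxia, against 209 on KD normoxia and 158 on WT normoxia. The _s_at probe set read 74.9 and 95.8 in hypoxia, KD first, against 87.6 and 136 in normoxia. Both were lower in hypoxia within each genotype, by -0.47 and -0.19 in KD cells and by -0.29 and -0.44 in WT cells, for the _at and the _s_at probe set in turn. For KD minus WT they disagreed: 0.20 in hypoxia and 0.37 in normoxia for the _at probe set, -0.30 and -0.55 for the _s_at probe set. Neither term passed for either of them (adjusted p from 0.0779 to 0.239).

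BCL2L1, which encodes BCL-XL, a main survival protein of epithelia, had an _at probe set above the floor throughout. It read 382 on the array labelled KD hypoxia and 390 on WT hypoxia, against 531 on KD normoxia and 433 on WT normoxia, so both hypoxia values lay below both normoxia values. The oxygen term was -0.30 (SE 0.12, adjusted p = 0.118). The _s_at probe set read 41.4 and 48.0 in hypoxia, KD first, against 44.6 and 62.6 in normoxia. It was below the floor on both KD arrays, so no size is read from its differences.

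BAX is the effector that moves to mitochondria during apoptosis. Its _s_at probe set read 306 on the array labelled KD hypoxia and 274 on WT hypoxia, against 312 on KD normoxia and 280 on WT normoxia, a range of 0.17 on the log2 scale, the narrowest of the 11 tested member probe sets. Of all tested probe sets, 88.3% had at least as wide a range over the 4 arrays. The _at probe set read 553 and 455 in hypoxia, KD first, against 611 and 552 in normoxia, a range of 0.41. The probe sets of BAX were lower in hypoxia within each genotype and higher in KD at each oxygen level, with oxygen terms of -0.02 and -0.20 and genotype terms of 0.15 and 0.21, for _s_at and _at in turn (adjusted p from 0.254 to 0.929).

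BAK1, the effector that sits in the mitochondrial membrane, was the one tested member that did not follow the others. Its _at probe set read 129 on the array labelled KD hypoxia and 101 on WT hypoxia, against 83.5 on KD normoxia and 113 on WT normoxia. Between KD hypoxia and KD normoxia it was higher by 0.54, and 9.76% of all tested probe sets differed at least as much in that pair. Between WT hypoxia and WT normoxia the difference was -0.14. The KD response minus the WT response came to 0.69. This was the only one of 11 member probe sets at least 1.5-fold on that measure, where 8.28% of all tested probe sets were, and it was not tested, since 4 arrays leave no degree of freedom for it. The _s_at probe set of BAK1, which never reached the floor, gives no second reading.

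BID links death receptors to mitochondria once caspase-8 has cut it. Its probe set read 1559 on the array labelled KD hypoxia and 1325 on WT hypoxia, against 1809 on KD normoxia and 1446 on WT normoxia. KD exceeded WT at each oxygen level, by 0.23 in hypoxia and 0.32 in normoxia, and the genotype term was 0.28 (SE 0.08, adjusted p = 0.0568). That term lay just outside the threshold and passed it under 4 of 8 alternatives (adjusted p from 0.0307 to 0.269 over all of them).

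BAD, the BH3-only protein that survival kinases silence by phosphorylation, read 91.9 on the array labelled KD hypoxia and 84.8 on WT hypoxia, against 118 on KD normoxia and 110 on WT normoxia. Both hypoxia values lay below both normoxia values, and the difference was alike in the genotypes, -0.31 in KD and -0.32 in WT cells. The oxygen term was -0.32 (SE 0.15, adjusted p = 0.211), and BAD's genotype term was 0.09.

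**Figure D2:**
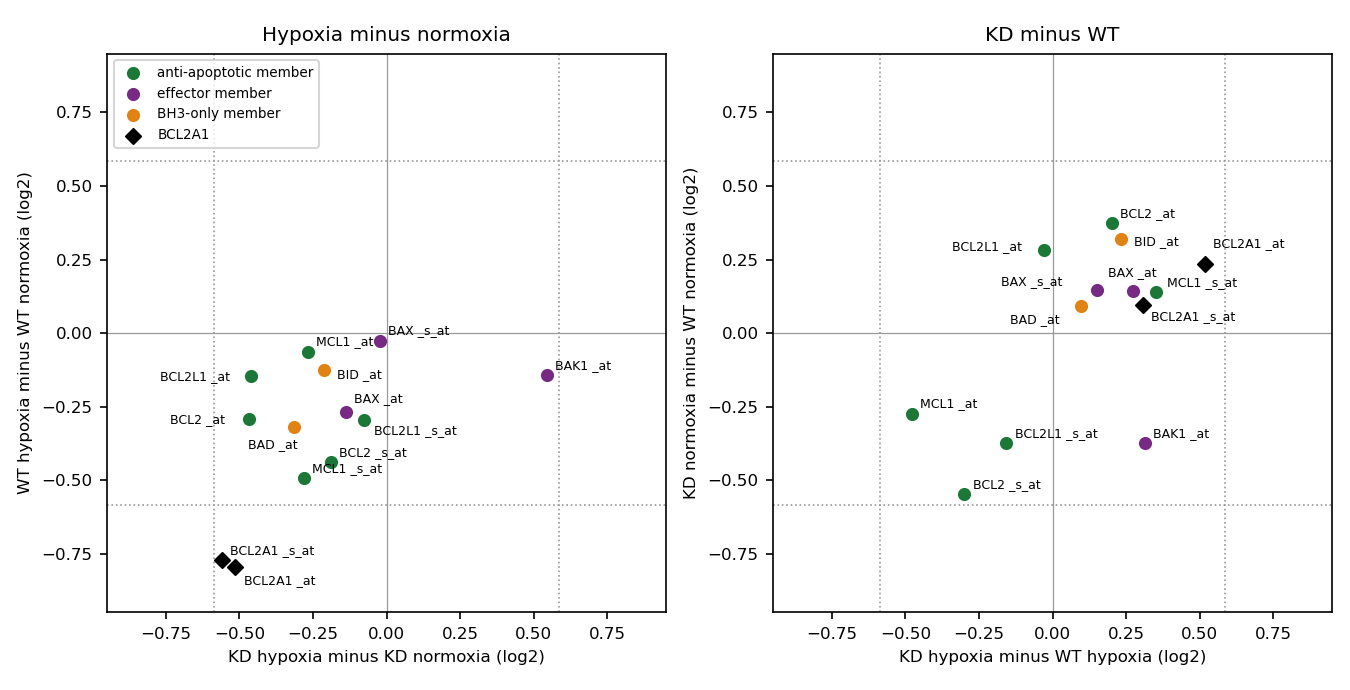
Log2 differences of the 11 tested member probe sets and of the pair of BCL2A1 probe sets, with 1 pair of arrays on each axis and dotted lines at 1.5-fold. On the left (hypoxia minus normoxia, KD cells across and WT cells up) 10 of 11 member probe sets lie below 0 on both axes and BAK1 lies to the right. On the right (KD minus WT, hypoxia across and normoxia up) the probe sets of BCL2 and of MCL1 lie on opposite sides of 0.

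The agreement in sign between probe sets of a member was counted in the oxygen and the genotype comparisons. For the 4 members with both probe sets tested (BCL2, BCL2L1, MCL1 and BAX), the hypoxia minus normoxia differences had the same sign in 8 of 8 cases, 1 of which set BCL2L1 values below the floor against each other. The KD minus WT differences had the same sign in 3 of 8. For the 3 genes with both probe sets at or above the floor on all 4 arrays (BCL2, MCL1 and BAX) the counts were 6 of 6 and 2 of 6. The 8 of 8 and the 6 of 6 follow from the counts of lower probe sets given above and are no separate result. Over all 3060 genes with exactly 2 tested probe sets, the sign was the same for 67.9% in KD hypoxia minus KD normoxia, 66.5% in WT hypoxia minus WT normoxia, 60% in KD hypoxia minus WT hypoxia and 64.9% in KD normoxia minus WT normoxia. Both probe sets were at or above the floor on all 4 arrays for 2366 of these genes. Their shares were 70.1%, 68.7%, 62.6% and 67.5% in the same order. The probe sets of a gene were hybridised to the same arrays, so this agreement says nothing of the spread between cultures. In Affymetrix naming an _s_at probe set holds probes shared by several transcript sequences, while an _at probe set is meant to be specific to 1.

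The members fell into a few shapes over the arrays. The array labelled KD normoxia was the highest for 7 of 11 tested probe sets, against 26% of all tested: those of BAX, BID and BAD, the _at probe sets of BCL2 and BCL2L1 and the _s_at probe set of MCL1. Of these 7, all but BCL2L1 were lowest on the array labelled WT hypoxia. That shape, highest on KD normoxia and lowest on WT hypoxia, was held by 6 of 11 member probe sets and 12.7% of all tested. The remaining probe set of each of the 3 survival genes was highest on WT normoxia and lowest on KD hypoxia, a shape of 3 of 11 member probe sets and 9.81% of all tested. For BCL2L1 both KD values lay below the floor, so their order is not relied on. Over probe sets at or above the floor on all 4 arrays the shape was held by 2 of 10 (BCL2 and MCL1), against 9.78% of all such probe sets. BAK1 (highest on KD hypoxia, lowest on KD normoxia) and the BCL2L1 _at probe set (the reverse) each had a shape that no other tested member held. No share over all tested probe sets is given for these shapes.

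**Figure D3:**
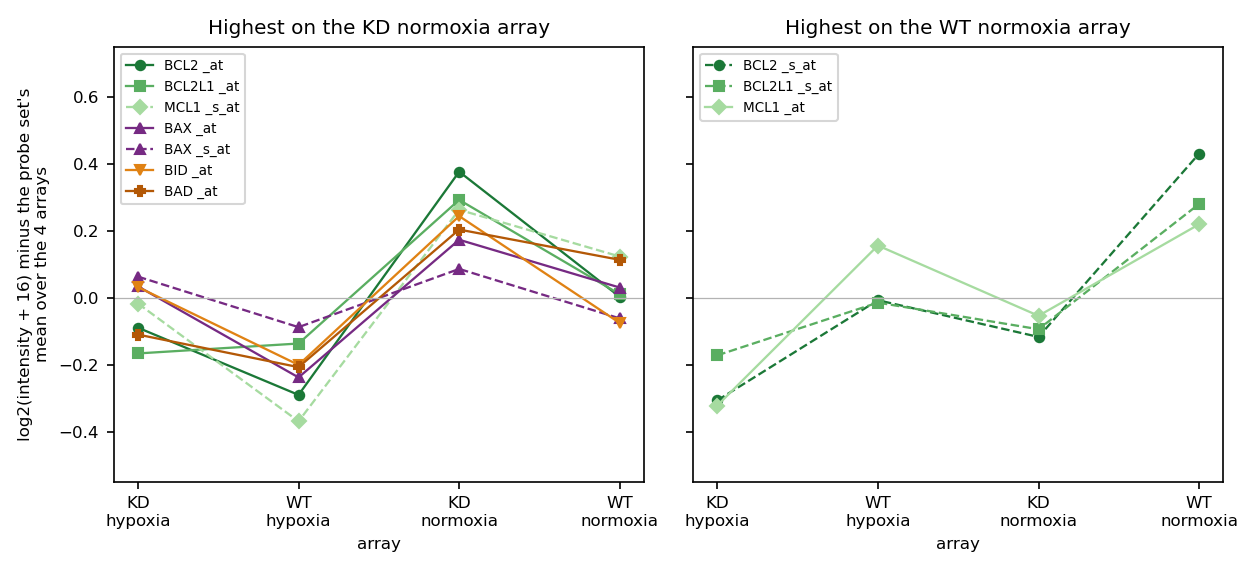
Log2(intensity + 16) of 10 tested member probe sets (all but BAK1) on the 4 arrays, each minus its own mean, split by the array on which it was highest. Solid lines are _at and dashed lines _s_at probe sets. The 7 on the left peak on KD normoxia, and the 3 on the right, from BCL2, BCL2L1 and MCL1, peak on WT normoxia and have their lowest value on KD hypoxia, which for BCL2L1 is below the floor.

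Of the members above the floor on every array, the widest ranges belonged to the BCL2 _s_at (0.74), the BCL2 _at (0.67) and the MCL1 _s_at probe set (0.63). Of all tested probe sets 14.1%, 18.5% and 21.3% had a range at least as wide. BCL2 and MCL1 were thus the 2 genes of widest range, each taken by its widest probe set. The named genes whose centred values over the 4 arrays lay nearest to the BCL2 _s_at probe set were BTD, PCSK4, BLOC1S3, EHF and MARCHF7, at Euclidean distances of 0.04 to 0.07 log2 units among 13656 candidate probe sets. Nearest to the MCL1 probe set were PYGL, DICER1, VPS26A, FAM104A and NUDT14, at 0.03 to 0.05. Likeness over only 4 arrays is a description of these arrays.

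Outside the 10 members, the largest difference among tested probe sets of the other family genes was that of BCL2A1, a survival gene that is best known from blood cells and as an NF-kappaB target. Its _at probe set read 3556 on the array labelled KD hypoxia and 2480 on WT hypoxia, against 5085 on KD normoxia and 4320 on WT normoxia. Its _s_at probe set read 2050 and 1654 in hypoxia, KD first, against 3028 and 2836 in normoxia. In each probe set of BCL2A1 both hypoxia values lay below both normoxia values. BCL2A1 fell in the oxygen term by 0.66 (SE 0.07, adjusted p = 4.5e-05 by limma) and 0.67 (SE 0.08, adjusted p = 6.96e-05). KD exceeded WT in both, with genotype terms of 0.38 (adjusted p = 0.00608) and 0.20 (adjusted p = 0.141). The oxygen calls ended without limma's trend (adjusted p = 0.142 and 0.132) and without the floor. Both BCL2A1 probe sets had the same shape as the MCL1 _s_at probe set, highest on KD normoxia and lowest on WT hypoxia. That shape was held by 12.7% of all tested probe sets.

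Among 9 other family genes and relatives with a probe set, 6 genes reached the floor with 12 probe sets, of which 2 fell in the oxygen term (both BCL2A1) and 1 rose in the genotype term. BCL2L13, a mitochondrial relative, had genotype terms of -0.35 and 0.30 in its 2 tested probe sets (adjusted p = 0.0866 and 0.11). BCL2L2 (BCL-W), a survival gene, had an oxygen term of -0.04 and BCLAF1, a BCL2-interacting nuclear factor, of -0.03 in the probe set with its largest difference. The BH3-only gene HRK was below the floor on every array, at 2.79 to 6.89.

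The counts of other genes of the pathway stand beside 10.2% of all tested probe sets for oxygen and 9.01% for genotype, and nothing particular to these lists is read from them. Of 22 tested probe sets from 12 genes of the apoptosome and caspases, 0 rose and 2 fell in the oxygen term, in 2 of the 3 tested probe sets of CASP6, an executioner caspase (-0.32, adjusted p = 0.0303, and -0.25, adjusted p = 0.0445, with -0.16, adjusted p = 0.39, in the other). For genotype 0 passed. CASP9, the caspase that the apoptosome activates, read 48.6 on the array labelled KD hypoxia and 78.4 on WT hypoxia, against 71.4 on KD normoxia and 69.9 on WT normoxia, with an oxygen term of -0.15 (adjusted p = 0.711). ENDOG, a mitochondrial nuclease, had an oxygen term of 0.32 and DFFA, the inhibitor of the caspase-activated nuclease, of 0.04, and neither passed. CASP2 had one of 0.34 (adjusted p = 0.0513), just outside the threshold, which passed under 5 of 7 alternatives (adjusted p from 0.035 to 0.237). The other tested probe sets of CASP2 had oxygen terms of 0.21, 0.01 and 0.41 and did not pass (adjusted p = 0.179, 0.99 and 0.219).

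Of 14 tested probe sets from 5 inhibitors of apoptosis, 2 fell in the oxygen term and 1 rose in the genotype term. BIRC3, a ubiquitin ligase of the NF-kappaB pathway, read 5282 on the array labelled KD hypoxia and 4814 on WT hypoxia, against 7340 on KD normoxia and 5643 on WT normoxia. Its oxygen term fell by 0.35 (adjusted p = 0.00261) and its genotype term rose by 0.26 (adjusted p = 0.0239), while 2 other tested BIRC3 probe sets did not pass, with oxygen terms of -0.28 and 0.02. BIRC5 (survivin), which also serves mitosis, fell by 0.35 in the oxygen term (adjusted p = 0.034) in 1 of its 2 tested probe sets, with -0.26 (adjusted p = 0.159) in the other. CFLAR, which blocks caspase-8, had an oxygen term of -0.09 and BIRC6 of 0.14 in the probe set with the largest difference, neither of which passed.

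Of 10 tested probe sets from 7 death receptor and adaptor genes, 1 fell in the oxygen term and 0 passed for genotype. That was TNFRSF21 (death receptor 6), at 130 on the array labelled KD hypoxia and 174 on WT hypoxia, against 317 on KD normoxia and 226 on WT normoxia, an oxygen term of -0.77 (SE 0.16, adjusted p = 0.00687). A second TNFRSF21 probe set, above the floor on 1 array, gave -0.34 (adjusted p = 0.456). The adaptors TRADD and CRADD had oxygen terms of -0.09 and 0.06, and the receptor TNFRSF1A had one of 0.16.

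Of 33 tested probe sets from 16 upstream regulators of the members, 2 rose and 2 fell in the oxygen term, and 2 rose in the genotype term. BAG1, a BCL2-binding co-chaperone, rose by 0.56 in the oxygen term (SE 0.09, adjusted p = 0.000719), with 1587 and 1512 in hypoxia, KD first, against 1033 and 1051 in normoxia, and its other tested probe set gave 0.33 (adjusted p = 0.117). VDAC1, a channel of the outer mitochondrial membrane, rose by 0.26 (adjusted p = 0.00199) in 1 of 2 tested probe sets. FOXO1, a transcription factor that can induce BCL2L11, fell by 0.39 (adjusted p = 0.0493) in 1 of 3, and YWHAB, a 14-3-3 protein of the class that binds BAD, fell by 0.20 (adjusted p = 0.0304) in 1 of 2. For genotype HUWE1, a ubiquitin ligase of MCL1, rose by 0.65 (adjusted p = 0.0254) in 1 of its 3 tested probe sets, with -0.04 and -0.20 in the others, and YWHAE rose by 0.50 (adjusted p = 0.00221) in 1 of 3. PIM1, a kinase of BAD, and STAT3 had oxygen terms of -0.57 (adjusted p = 0.0521) and 0.34 (adjusted p = 0.0773) in the probe set with the largest difference. PIM1 passed under 4 of 7 alternatives (adjusted p from 0.0143 to 0.386) and STAT3 under 1 of 8 (adjusted p from 0.0288 to 0.406).

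Of 28 tested probe sets from 12 p53 target genes, a class to which BAX, BBC3 and PMAIP1 also belong, 1 rose in the oxygen term. In the genotype term there was 1 that rose and 1 that fell. CCNG1 rose by 0.34 in the oxygen term (adjusted p = 0.0033) in 1 of 3 tested probe sets. CDKN1A, the p21 cell cycle inhibitor, rose by 0.28 in the genotype term (adjusted p = 0.0237) in 1 of 3, at intensities of 3437 and 2807 in hypoxia, KD first, against 2996 and 2493 in normoxia. TIGAR fell by 0.51 in the genotype term (adjusted p = 0.0257) in 1 of 2 tested probe sets, with -0.26 (adjusted p = 0.0663) in the other. SESN1, PERP and RRM2B did not pass in either term. Genes of these lists that passed are named because they passed, beside those chosen by size.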

How the data were processed

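The authors deposited 1 linear intensity per probe set and array. The software, background correction and scaling that gave it are not stated in the labels or the file header. Control probe sets (64) were left out, which left 42860, of which 29254 had 1 gene symbol in the platform annotation, 439 several and 13167 none. All 13 member probe sets were found by gene ID, with the same symbol, in a RefSeq table of dog genes (assembly from a German Shepherd), from which only names were taken. Values exactly 1 (1064 to 1129 per array) were read as listed at 1, with no level.

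Values were turned to log2(intensity + 16) with no further scaling, and 23612 probe sets reached the floor. The additive model of genotype and oxygen was fitted with limma 3.58.1 under R 4.3.3 (lmFit, then eBayes with an intensity trend), with 1 residual and 13.5 prior degrees of freedom. Its p-values were two-sided, and calls were made at a Benjamini-Hochberg adjusted p of 0.05. Steps were tested on simulated data. The members, the 6 lists of other genes and the tests were chosen with earlier results of these data known. From each list, up to 4 genes with the largest difference in any comparison, above the floor on all 4 arrays, are named, together with genes that passed, which were added after their values were seen. The likeness of a member to other genes was measured for the 2 members with the widest range, 5 genes each. Alternatives were quantile scaling, median centring, pseudocounts of 1 and 64, no floor, a floor at the 75th percentile, 1 probe set a gene, a 2-fold threshold and limma without trend.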

Additional observations from a re-analysis of the deposited data

Results flagged for a closer look

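Some probe sets moved in opposite directions between the arrays that make up a comparison, and with 1 array per group none of these differences was tested. They are given as the hypoxia minus normoxia difference in KD cells minus that in WT cells, on the log2 scale.

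Among the members, BAK1 had 0.69, with a higher value in hypoxia in KD cells and a lower one in WT cells, and BCL2L1 (its _at probe set) had -0.31, with KD below WT in hypoxia and above it in normoxia. For BCL2L1 the difference in hypoxia was only -0.03, and it turned to 0.0027 under median centring, where the signs were no longer opposite. Of their relatives, BCLAF1 had 0.73 and BCL2L2 had 0.47, each with opposite signs in both the oxygen and the genotype comparison. For BCLAF1 this is the probe set with its largest difference. Its other tested probe sets gave 0.10, 0.10 and 0.37. Of these only the last had opposite signs, in the oxygen comparison alone, so the reversal was not shared by the gene's probe sets.

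The hypoxia minus normoxia difference also had opposite signs in KD and WT cells for CASP9 (-0.57), DFFA (0.39), CFLAR (-0.85), BIRC6 (-0.33), CRADD (0.33), TRADD (-0.55), TNFRSF1A (0.40), PERP (-0.32), RRM2B (0.15) and TIGAR (-0.11), and for ADM (-1.87). Each value is from 1 probe set, and other tested probe sets of a gene did not always share it. Those of CFLAR gave -0.22, -0.04 and 0.39, all with opposite signs in KD and WT cells, the last in the other direction. The brighter probe set of TRADD gave 0.04 and another of BIRC6 gave 0.12, each with the same sign in KD and WT cells. The brightest probe set of BIRC6 gave -0.15, with opposite signs. The KD minus WT difference had opposite signs in hypoxia and normoxia for ENDOG (0.44), TNFRSF21 (-0.84), PIM1 (-0.72), BAG1 (0.094), STAT3 (0.51), SESN1 (0.56), FOXO1 (0.34), the _s_at probe set of CASP6 (-0.10) and a dimmer probe set of HIF1A (-0.39). Both hypoxia values of that HIF1A probe set lay below the floor, so neither its sign in hypoxia nor the size is relied on. The smaller of both differences was 0.01 for CASP6 and 0.03 for BAG1. In each other tested probe set of TNFRSF21, BAG1, STAT3, SESN1 and FOXO1, the KD minus WT difference kept its sign over both oxygen levels.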

How the results depend on the processing

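No paired analysis was possible because the groups have 1 array each and share no replicate number, beyond the additive model itself, in which each term is estimated within the levels of the other. The directions of the members in the oxygen comparisons stayed the same under the other scalings, with 10 of 11 and 11 of 11 probe sets lower. Median centring shifts all differences of a pair by the same amount. A pseudocount cannot change the sign of a difference, so the same counts under the other pseudocounts were fixed in advance and are no check. With 1 probe set a gene, which takes some of the same probe sets, 6 of 7 and 7 of 7 genes were lower. The shape highest on WT normoxia and lowest on KD hypoxia was held by 1 member probe set with the floor at the 75th percentile and by 0 with 1 probe set a gene. No share over all tested probe sets or genes is given for the directions and the shape under these alternatives, so these counts have no background. These directions, those over probe sets at or above the floor on all 4 arrays, and the calls of genes outside the members, were checked under alternatives added after seeing the data. The counts of member probe sets at least 1.5-fold moved from 0 to 1 under some settings. For KD hypoxia minus KD normoxia these were a pseudocount of 1 (12% of all tested probe sets) and no floor (10.6%). For WT hypoxia minus WT normoxia it was no floor (9.46%), and for KD normoxia minus WT normoxia a pseudocount of 1 (11.7%). Without the floor 13 member probe sets were tested, and a count of 1 is near each of these shares. The 1 probe set past 1.5-fold in the difference of the responses, BAK1, became 0 with a pseudocount of 64, a floor at the 75th percentile or a 2-fold threshold. The oxygen calls among the members numbered 2 under quantile scaling, with BCL2 added, where 12.8% of all tested probe sets passed. They numbered 0 with no floor (0.292% of all) or without limma's trend (0.106%). The genotype calls numbered 3 under quantile scaling (11.9% of all) and 2 under median centring (9.62%). They numbered 1 with a pseudocount of 1 (10.1%) and 2 with a pseudocount of 64 (9.88%). All were from BID and the MCL1 probe sets, and the number was 0 otherwise. Each call named outside the members also ended with no floor and without the trend, except the oxygen call of the brighter HIF1A probe set, and with 1 probe set a gene 3 calls ended (1 of CASP6, that of FOXO1 and the genotype call of BIRC3). The oxygen terms of CASP2, PIM1 and STAT3 passed under 5, 4 and 1 of their alternatives. The cause was not tested. Of 56 such counts 42 stayed within 1.5 times the reported count, and of 260 differences of single member probe sets under other scalings and pseudocounts 237 moved by less than 0.1. The floor is a filter and detection calls were not used here, so no size is read from differences below the floor.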
